A study of Mus musculus with 24 samples.

Results

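The genes described here are the splicing factors and hnRNPs of mouse liver: 36 of the 14351 genes tested, measured by 37 probe sets. They were taken by name, as the genes whose symbol begins with Srsf and a number, Hnrnp, Sf3a or Sf3b, U2af, or Snrp. This choice of names was made with earlier results of these data known, so it is not independent of the values below. They fall into 9 SR proteins (Srsf1, Srsf2, Srsf3, Srsf4, Srsf6, Srsf7, Srsf9, Srsf10 and Srsf12), 11 hnRNPs (Hnrnpa2b1, Hnrnpab, Hnrnpc, Hnrnpd, Hnrnpdl, Hnrnph1, Hnrnpl, Hnrnpll, Hnrnpm, Hnrnpr and Hnrnpu), 7 SF3a and SF3b subunits (Sf3a1, Sf3a2, Sf3b1, Sf3b2, Sf3b3, Sf3b5 and Sf3b6), 1 U2AF-related gene (U2af1l4) and 8 Snrp proteins. The Snrp proteins are 6 of the Sm core (Snrpb, Snrpd1, Snrpd3, Snrpe, Snrpg and Snrpn) and 2 of the U2 particle (Snrpa1 and Snrpb2). A further 20 genes of the same names in the reference, among them Hnrnpa1, Hnrnpk, Srsf5, U2af1 and U2af2, were not analysed here.

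The 24 Affymetrix 3′ arrays came from 12 adult mice, 12 to 14 months old, and 12 young mice, 4 to 5 weeks old. In either age, 3 arrays each followed 30, 60 or 90 min of partial hepatic ischemia, a closure of the blood supply to some of the liver lobes, and 3 followed a sham operation. RNA was taken from the median and left lobes, and the titles write the times as 30/0, 60/0 and 90/0. Genotype, strain and sex are not given in the sources used here. Each deposited value divides a probe set by its own age's sham mean over 3 arrays. A ratio of 1 is therefore the sham level, and nothing can be said of adult against young sham liver. Ratios ran from 0.0255 to 16.9 over all probe sets, with array medians between 0.955 and 1.02. Array brightness is not kept, so whether liver marker genes were bright could not be checked, and precision is limited by the 3 arrays of a group. A code in the sample titles has a first part, which some sham and ischemia arrays of an age share, and a number. That number was 5 for 5 of the 6 sham arrays and another for every ischemia array. It was 4 for the arrays at 60 min, mostly 3 at 30 min and mostly 2 at 90 min. The labels do not say what the code is, and that number and ischemia cannot be told apart. Adult and young arrays share no first part, so the first part and age cannot be told apart either.

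Pre-mRNA splicing removes introns through the spliceosome, which is built from small nuclear RNA-protein particles. The Sm proteins form the ring around the RNAs of these particles, and SF3a and SF3b belong to the U2 particle, which binds the branch point after U2AF has recognised the end of the intron. SR proteins mostly bind exonic enhancers and promote the use of nearby splice sites, while many hnRNPs bind intronic or exonic silencers and oppose it. Many SR protein and hnRNP genes control their own level through exons whose inclusion marks the transcript for decay. In mouse hepatocytes, loss of Srsf3 is known to disturb maturation and metabolism. A 3′ array reads the amount of transcript near its end and not how it was spliced. In whole liver, fewer cells of a type and less RNA per cell cannot be told apart.

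The promoter windows of 4 members are shown because of their values at 60 min in adult liver: Srsf3 and Srsf7 had the largest differences among the SR proteins and Sf3b6 among the SF3 subunits, and Hnrnpl was the one hnRNP whose ischemia ratios all lay above sham there. Each runs 5′ to 3′ and is the window that the RefSeq table (GRCm38.p6) gives for the gene. Those of Srsf3, Srsf7 and Sf3b6 span the start of the annotated gene, which on the plus strand is base 29032660 for Srsf3 and 4817608 for Sf3b6, and on the minus strand base 80207369 for Srsf7. That of Hnrnpl lies inside the gene, downstream of its annotated start at base 28808546. Srsf3 is at chr17:29032410-29032709 on the plus strand, Srsf7 at chr17:80207256-80207555 on the minus strand, Sf3b6 at chr12:4817358-4817657 on the plus strand and Hnrnpl at chr7:28810640-28810939 on the plus strand. Capitals mark matches, on either strand, to CCAAT (the CCAAT box), CCGGAA (the core bound by ETS factors), GGGCGG (the GC box), TATAAA (the TATA box), TGACGT (the CRE core), GCATGCGC (a motif of NRF1), CACGTG (an E-box) or GAANNTTC (a heat shock element core).
Srsf3: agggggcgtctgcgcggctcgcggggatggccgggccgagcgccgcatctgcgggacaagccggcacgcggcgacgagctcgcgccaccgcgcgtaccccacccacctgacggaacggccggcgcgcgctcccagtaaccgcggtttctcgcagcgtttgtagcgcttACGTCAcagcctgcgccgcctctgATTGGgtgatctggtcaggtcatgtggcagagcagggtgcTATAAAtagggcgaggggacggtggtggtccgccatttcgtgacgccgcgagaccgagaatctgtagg
Srsf7: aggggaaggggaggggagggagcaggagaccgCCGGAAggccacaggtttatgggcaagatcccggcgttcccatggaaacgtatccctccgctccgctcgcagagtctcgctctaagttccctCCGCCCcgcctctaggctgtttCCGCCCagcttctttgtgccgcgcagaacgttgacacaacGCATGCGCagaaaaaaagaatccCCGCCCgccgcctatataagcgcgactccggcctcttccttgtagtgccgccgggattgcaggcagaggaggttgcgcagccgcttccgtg
Sf3b6: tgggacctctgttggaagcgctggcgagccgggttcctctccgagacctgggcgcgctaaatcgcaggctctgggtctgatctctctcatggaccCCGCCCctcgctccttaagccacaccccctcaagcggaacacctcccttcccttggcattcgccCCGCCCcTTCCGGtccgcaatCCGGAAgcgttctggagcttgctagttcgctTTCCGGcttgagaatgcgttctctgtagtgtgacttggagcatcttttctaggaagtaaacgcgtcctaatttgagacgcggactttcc
Hnrnpl: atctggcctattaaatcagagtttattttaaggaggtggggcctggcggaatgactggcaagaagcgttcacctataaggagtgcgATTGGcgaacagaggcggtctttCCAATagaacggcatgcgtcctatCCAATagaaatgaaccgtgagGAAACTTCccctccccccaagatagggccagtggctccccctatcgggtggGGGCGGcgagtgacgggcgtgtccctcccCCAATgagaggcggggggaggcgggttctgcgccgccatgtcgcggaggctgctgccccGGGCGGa

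In these 4 windows no match overlaps a match to another motif. The Srsf3 window holds 1 CRE core, 1 CCAAT and 1 TATAAA match, while Srsf7 and Sf3b6 hold GC boxes and ETS cores, with an NRF1 motif in Srsf7. The Hnrnpl window holds 7 matches: 4 to CCAAT, 2 GC boxes and 1 heat shock element core. Promoter windows matched 32 of the 36 members, 44 windows in all, some of which overlap each other. CCGGAA lay in 22 of the 44 windows (50%), against 14.9% of all 32851 windows of the same length. Those 22 windows belong to 19 of the 32 genes, and no share of genes was counted over all windows. The windows compared were not matched for base composition. GGGCGG lay in 65.9% of member windows against 35.7% of all, and TGACGT in 18.2% against 7.51%. CCAAT lay in 43.2% against 37.4%, GAANNTTC in 13.6% against 7.86%, and GCATGCGC in 6.82% against 2.71%. TATAAA was equally common, at 13.6% of both, and CACGTG was in 4.55% of member windows and 7.15% of all. A match says that these letters are in the window and not that a factor binds there.

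Across the 8 groups the median of the members was lowest in adult livers after 60 and 90 min. The median log2 ratio of the 36 members was −0.31, −0.33 and −0.60 on the 3 adult arrays at 60 min, and −0.32, −0.34 and −0.48 at 90 min, against −0.02, −0.01 and 0.03 in adult sham livers. All 6 of these ischemia arrays lay below all 3 sham arrays. At 30 min the adult arrays disagreed, with medians of −0.45, −0.26 and 0.11, the last of them above every sham array. In young livers the medians were −0.08, −0.07 and −0.19 at 30 min, −0.27, −0.07 and −0.14 at 60 min and 0.10, 0.16 and −0.15 at 90 min, against −0.18, −0.03 and 0.14 in young sham livers. Each of these young groups overlapped its sham group, and the young sham arrays were spread more widely than the adult ones.

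**Figure D1:**
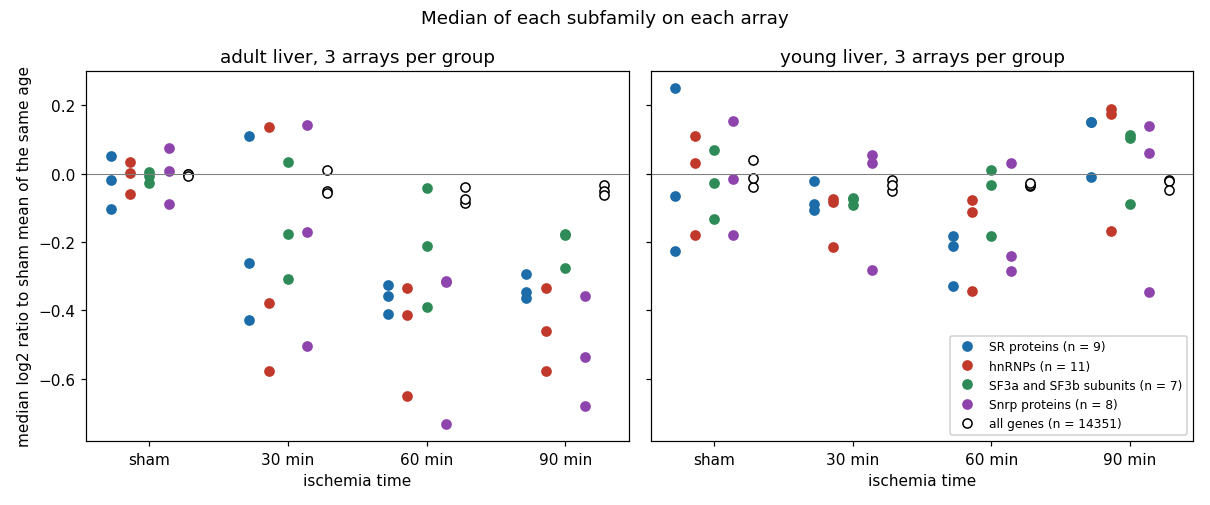
Median log2 ratio to the sham mean over the SR proteins, hnRNPs, SF3 subunits and Snrp proteins and over all 14351 genes (colours), 1 point per array, for the 8 groups, adult left and young right. For each of these 4 subfamilies the adult arrays at 60 and 90 min lie below the adult sham arrays, while the young groups overlap young sham.

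**Figure D2:**
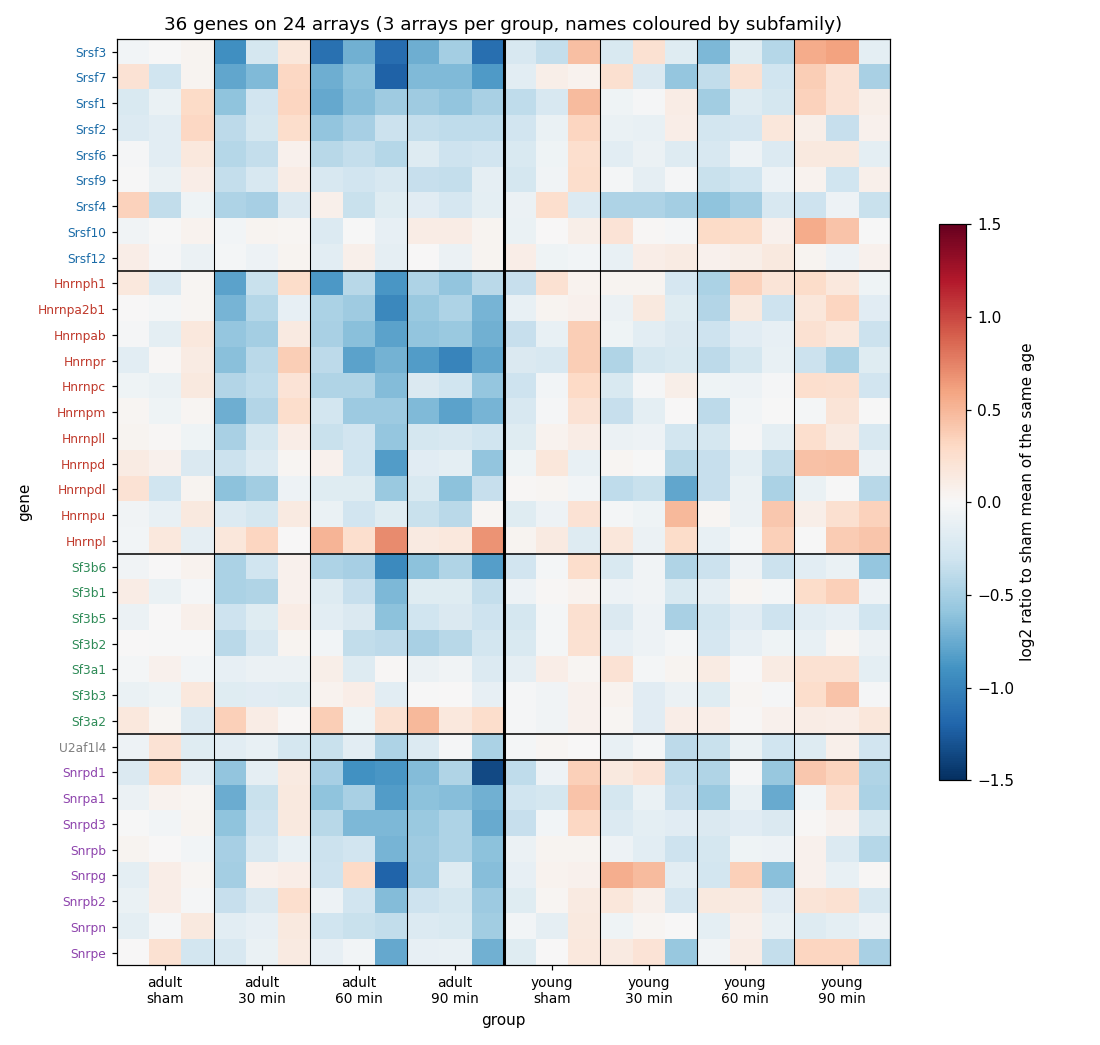
Log2 ratio to the sham mean of the same age for each of the 36 genes (rows, by subfamily) on each of the 24 arrays (columns, by group); the colour bar gives the scale. Most rows are negative at 60 and 90 min in adults, while Hnrnpl and Sf3a2 are mostly positive there, and the adult 30 min array of replicate 3 has a member median of 0.11.

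After 60 min of ischemia in adult liver, 12 of the 36 members fell and 0 rose. They were 4 SR proteins, 4 hnRNPs, the SF3b subunit Sf3b6 and 3 Sm core proteins, with falls between 0.33 and 0.99 on the log2 scale. A fall or rise is a limma comparison of log2 ratios with an adjusted p (Benjamini-Hochberg over all 14351 genes) under 0.05, and an error is its standard error. Of all genes 11.9% passed, 9.78% down and 2.15% up. The log2 difference was below 0 for 33 of 36 members and for 58.7% of all genes, with a median of −0.40 over the members and −0.05 over all genes. An unadjusted p under 0.05 was reached by 23 members and by 33.3% of genes. All 3 ischemia arrays lay below all 3 sham arrays for 22 members, against 25.9% of genes, and above them for 1 member, Hnrnpl, against 11.1% of genes.

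Among the SR proteins 4 of 9 fell, and the median difference of the 9 was −0.39. Srsf3, the smallest classical SR protein, which also takes part in mRNA export, had ratios of 0.460, 0.608 and 0.455 at 60 min, against 0.973, 1.00 and 1.03 in adult sham livers. Its ischemia mean was 0.508 ± 0.0869 and its sham mean 1.00 ± 0.0272 (SD, n = 3 each), and it fell by 0.99 ± 0.25 on the log2 scale (adjusted p = 0.0305). The groups do not overlap, and the highest ischemia array is well below the lowest sham array. Srsf7, an SR protein with a zinc knuckle, had ratios of 0.602, 0.651 and 0.430 at 60 min, against 1.16, 0.813 and 1.03 in sham livers, and fell by 0.84 ± 0.27 (adjusted p = 0.0450). Srsf1, which promotes exon inclusion and the use of nearby splice sites, had ratios of 0.588, 0.643 and 0.693 against 0.853, 0.930 and 1.22 in sham livers, and fell by 0.63 ± 0.20 (adjusted p = 0.0467). Srsf6 fell by 0.39 ± 0.13 (adjusted p = 0.0479). For Srsf7, Srsf1 and Srsf6, too, the groups do not overlap. The other 5 SR proteins did not pass, with −0.45 for Srsf2, −0.25 for Srsf9, −0.11 each for Srsf4 and Srsf10 and −0.07 for Srsf12.

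Among the hnRNPs 4 of 11 fell, with a median of −0.45 over the 11. Hnrnph1, which binds runs of G, had ratios of 0.550, 0.751 and 0.547 at 60 min, against 1.12, 0.867 and 1.02 in sham livers, and fell by 0.71 ± 0.23 (adjusted p = 0.0469). Hnrnpa2b1, an abundant hnRNP that also acts in mRNA transport, had 0.717, 0.690 and 0.514, against 1.00, 0.979 and 1.02 in sham livers, and fell by 0.66 ± 0.16 (adjusted p = 0.0301). It is the 1 member with a second probe set, which gave −0.72 ± 0.19 at this time. In all 3 ischemia arrays both of these genes lay below every sham array. Hnrnpab and Hnrnpr both fell by 0.63, with standard errors of 0.18 and 0.19 (adjusted p = 0.0355 and 0.0412). Hnrnpl, which binds CA repeats, had ratios of 1.43, 1.20 and 1.63 at 60 min, against 0.969, 1.12 and 0.913 in sham livers. Its arrays do not overlap either, but its difference of 0.50 ± 0.17 missed the threshold (adjusted p = 0.0524). With each array centred on its median it passed, at 0.56 ± 0.17 (adjusted p = 0.0466), and 6 members then fell and 1 rose. Over all genes 1325 passed with centring, against 1712 without it. Hnrnpc, which binds runs of U, and Hnrnpll, known for its role in CD45 splicing in T cells, had −0.51 and −0.40 and also missed narrowly (adjusted p = 0.0541 and 0.0537). Hnrnpm, Hnrnpd, Hnrnpdl and Hnrnpu ranged from −0.45 to −0.19 at 60 min.

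Of the 7 SF3a and SF3b subunits only Sf3b6 fell, and the median of the 7 was −0.27. Sf3b6, the small subunit that contacts the branch point adenosine, had ratios of 0.723, 0.709 and 0.518 at 60 min, against 0.962, 1.00 and 1.03 in sham livers, and fell by 0.64 ± 0.17 (adjusted p = 0.0319). Every ischemia array was below every sham array. Sf3b1, the large subunit that holds the branch point, had −0.40 ± 0.14 (adjusted p = 0.0604). Sf3b5 had −0.33, Sf3b2 −0.27, Sf3a1 −0.03, Sf3b3 0.01 and Sf3a2 0.18, and none of these passed. The paralogue of the small U2AF subunit, U2af1l4, differed by −0.31 ± 0.13 (adjusted p = 0.104).

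Of the 8 Snrp proteins 3 fell, all of the Sm core (3 of 6), and the median of the 8 was −0.42. Snrpd3 had ratios of 0.749, 0.628 and 0.626 at 60 min, against 0.993, 0.976 and 1.03 in sham livers, and fell by 0.59 ± 0.16 (adjusted p = 0.0319). Snrpb, the source of the SmB proteins, had 0.800, 0.817 and 0.615, against 1.03, 1.01 and 0.969, and fell by 0.44 ± 0.12 (adjusted p = 0.0354). Snrpn, an imprinted gene for a close relative of SmB, fell by 0.33 ± 0.10 (adjusted p = 0.0462). In none of these 3 genes do the groups overlap. Snrpd1 had −0.74 ± 0.27 and the U2 protein Snrpa1 −0.64 ± 0.21, larger differences with larger errors, and missed the threshold (adjusted p = 0.0651 and 0.0524). Snrpg shows how far single arrays could part, with ratios of 0.805, 1.23 and 0.435 at 60 min against 0.905, 1.07 and 1.02 in sham livers.

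**Figure D3:**
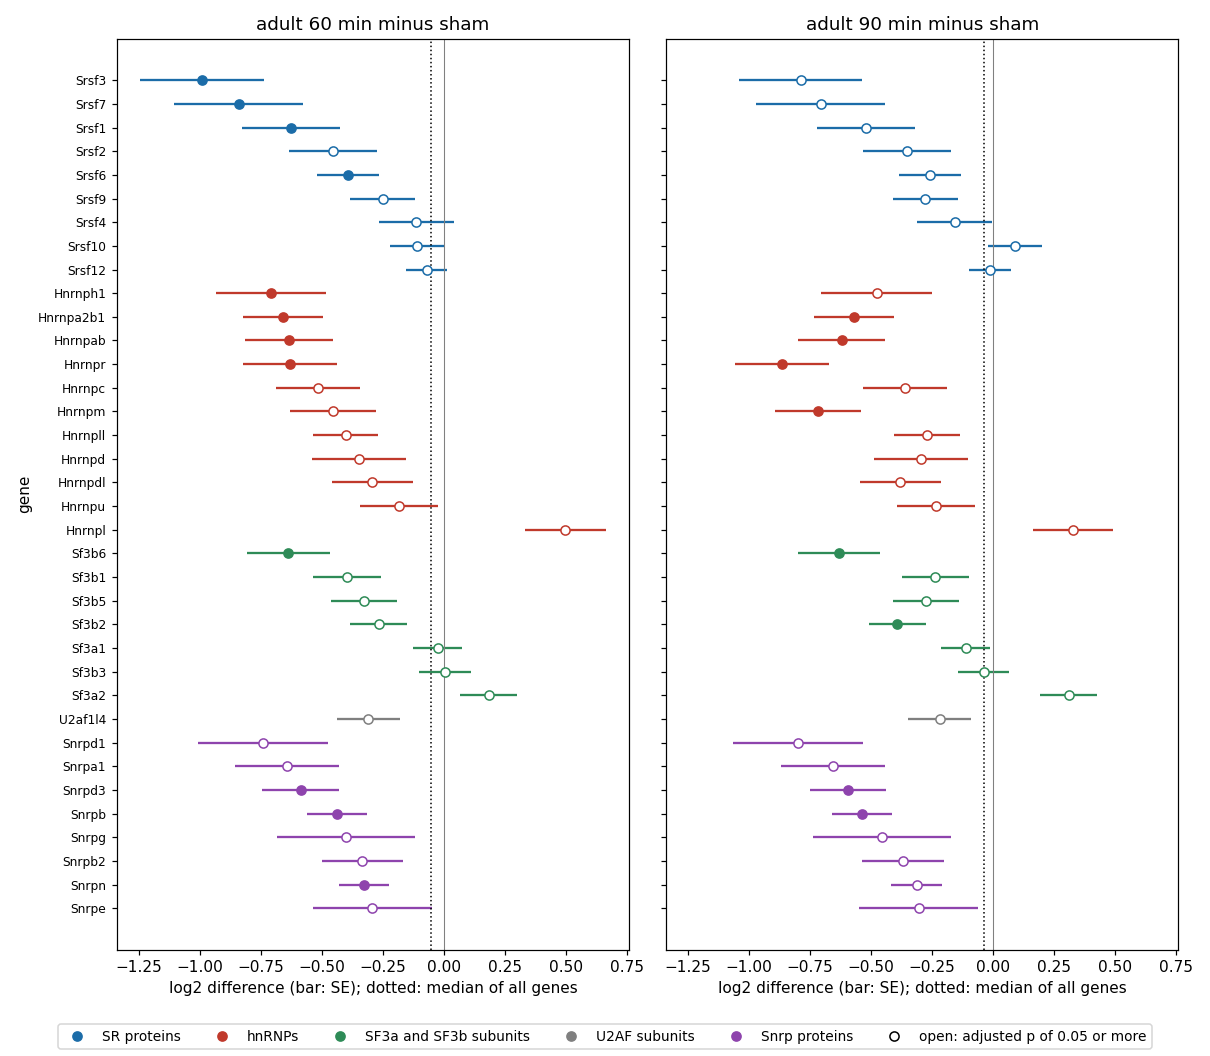
Log2 difference from sham with its standard error for each of the 36 genes in adult liver at 60 min (left) and 90 min (right), coloured by subfamily, with filled points for an adjusted p under 0.05. The dotted line is the median of all genes. At either time 33 of 36 points lie below 0, and Srsf3 is the lowest at 60 min.

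After 90 min in adult liver 8 of 36 members fell and 0 rose, against 7.45% of all genes called, 6.28% down and 1.17% up. The 8 were 4 hnRNPs (Hnrnpr, Hnrnpm, Hnrnpab and Hnrnpa2b1), the SF3b subunits Sf3b6 and Sf3b2, and the Sm proteins Snrpd3 and Snrpb. The difference was below 0 for 33 members, against 56.5% of genes, and the median was −0.36, against −0.04 over all genes. An unadjusted p under 0.05 was reached by 20 members, against 28.6% of genes. The ischemia arrays all lay below sham for 25 members, against 26.4% of genes, and all above it for 0, against 12.8% of genes. The comparison shares its sham arrays with that at 60 min, so the values at both times are not independent.

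Hnrnpr, which is closely related to Syncrip, had the lowest difference among the members that passed at 90 min. Its ratios were 0.560, 0.504 and 0.580 at 90 min, against 0.900, 1.01 and 1.09 in sham livers, a fall of 0.87 ± 0.19 (adjusted p = 0.0209). Hnrnpm, which binds GU-rich sequence, had 0.633, 0.575 and 0.618, against 1.02, 0.959 and 1.02, and fell by 0.72 ± 0.18 (adjusted p = 0.0261). All 3 ischemia arrays were far below the sham arrays in both genes. Hnrnpab fell by 0.62 ± 0.18 (adjusted p = 0.0424) and Hnrnpa2b1 by 0.57 ± 0.16 (adjusted p = 0.0419); the second probe set of Hnrnpa2b1 gave −0.62 ± 0.19. The median of the 11 hnRNPs was −0.38, and Hnrnpl again stood above 0, at 0.33 ± 0.17 (adjusted p = 0.195), with ratios of 1.09, 1.12 and 1.60 that overlap its sham ratios.

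Sf3b6 had ratios of 0.654, 0.730 and 0.563 at 90 min, against 0.962, 1.00 and 1.03 in sham livers, and fell by 0.63 ± 0.17 (adjusted p = 0.0337). Sf3b2, which bridges the branch region and the U2 RNA, had 0.716, 0.748 and 0.826, against 1.01, 1.00 and 0.995, and fell by 0.39 ± 0.12 (adjusted p = 0.0470). Neither pair of groups overlaps. Sf3a2 had 0.31 ± 0.12 (adjusted p = 0.0959), and its ischemia ratios of 1.40, 1.11 and 1.21 overlapped the sham ratios of 1.11, 1.02 and 0.865. With the code that arrays share in their titles as a blocking term, Sf3a2 passed upward, at 0.42 ± 0.11 (adjusted p = 0.0302). The median of the 7 subunits was −0.24.

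Snrpb had ratios of 0.692, 0.723 and 0.654 at 90 min, against 1.03, 1.01 and 0.969 in sham livers, and fell by 0.54 ± 0.12 (adjusted p = 0.0225). Snrpd3 had 0.679, 0.723 and 0.590, against 0.993, 0.976 and 1.03, and fell by 0.60 ± 0.16 (adjusted p = 0.0321). Both sets of ischemia arrays were lower than every sham array, and the 8 Snrp proteins had a median of −0.50. Of the 9 SR proteins 0 passed at 90 min, with a median of −0.28. Srsf3 had ratios of 0.603, 0.702 and 0.458 against 0.973, 1.00 and 1.03 in sham livers, a difference of −0.79 ± 0.25 (adjusted p = 0.0601), and Srsf7 had −0.71 ± 0.27 (adjusted p = 0.0944). With the code as a blocking term Srsf1, Srsf2 and Srsf3 passed at 90 min, and 11 members in all fell and 1 rose. Srsf3 then had −0.91 ± 0.23 (adjusted p = 0.0280). Calls over all genes rose as well, from 1069 to 1467 of 14351.

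The adult calls had adjusted p-values between 0.0209 and 0.0479. After quantile normalization within an age 0 members passed at either time, as did 0 of all 14351 genes at 60 min and 3 at 90 min, and the member medians were −0.22 at 60 min and −0.20 at 90 min. Leaving out 1 array gave 0 to 10 members at 60 min: 0 without sham replicate 1 or 3 or ischemia replicate 2 or 3, 1 without sham replicate 2 and 10 without ischemia replicate 1. At 90 min it gave 0 to 5: 1 without sham replicate 1 or ischemia replicate 3, 5 without sham replicate 2, and 0 without sham replicate 3 or ischemia replicate 1 or 2. Over all genes the count at 60 min was 1712 with all arrays and between 1 and 2177 with 1 array left out. At 90 min it was 1069 with all arrays and between 7 and 806 with 1 left out. The member medians moved less, between −0.44 and −0.28 at 60 min and between −0.39 and −0.35 at 90 min. With the code that arrays share in their titles as a blocking term, 11 members passed at 60 min and 12 at 90 min. Over all genes 1710 passed with it at 60 min and 1467 at 90 min, against 1712 and 1069 without it. At 60 min Srsf2 and Snrpa1 then passed (adjusted p = 0.0380 and 0.0391), and Srsf7, Hnrnph1 and Snrpn did not (adjusted p = 0.0558, 0.0635 and 0.0527). At 90 min Srsf1, Srsf2, Srsf3, Snrpa1 and, upward, Sf3a2 were gained, and Sf3b2 was lost (adjusted p = 0.0522). Within arrays that share that code, the member median was −0.27, −0.31 and −0.62 at 60 min and −0.29 and −0.46 at 90 min, with 30 to 33 of 36 members below 0.

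Marker genes of liver cell types were read in the adult arrays too. At 60 min 16 of 17 hepatocyte markers were below 0, with a median of −0.28, and 0 passed; their median per array was −0.06, −0.30 and −0.54 at 60 min, against 0.02, −0.02 and 0.01 in sham livers. All 13 markers of Kupffer cells, the macrophages of the liver, were below 0 at 60 min with a median of −0.48, and 1 fell. At 90 min 12 of the 13 Kupffer cell markers fell and their median was −1.18; per array it was −1.80, −0.95 and −1.22 at 90 min, against −0.24, −0.31 and 0.36 in sham livers. Hepatocyte markers had a median of −0.23 at 90 min and 1 of 17 fell, endothelial markers −0.28 with 1 of 15, and stellate cell markers 0.01 with 2 of 14. Of all genes 9.78% were called down at 60 min and 6.28% at 90 min. The other lists lay mostly above 0. The mean of their array medians at 60 and 90 min was 0.12 and 0.09 for T and NK cells and 0.17 and 0.03 for B cells. It was 0.10 at both times for cholangiocytes, and 0.01 and −0.05 for neutrophils. The part of cell types in the splicing results was not tested.

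After 30 min in adult liver 0 of 36 members passed, as did 0 of all genes (0%). An unadjusted p under 0.05 was reached by 4 members (Hnrnpa2b1, Srsf4, Hnrnpdl and Snrpb), against 10.4% of genes. The difference was below 0 for 33 members, against 57% of genes, with a median of −0.19, and the ischemia arrays all lay below sham for 4 members, against 6.29% of genes. Hnrnpa2b1 had ratios of 0.619, 0.746 and 0.922 at 30 min, against 1.00, 0.979 and 1.02 in sham livers, a difference of −0.41 ± 0.16 (adjusted p = 0.461). Srsf3 had 0.531, 0.833 and 1.12, which reach from the level of the 60 min arrays to above sham. Replicate 3 was the high array in both genes, and the member median within shared title codes was −0.39, −0.25 and 0.05. With 1 array left out at a time, the median of the members ran from −0.35 to −0.08. The lowest was without replicate 3, the array with the highest member median, so a lower value was to be foreseen. Without replicate 3, 0 members and 89 of 14351 genes passed. Over all fits with 1 array left out, 0 to 20 members had an unadjusted p under 0.05, the most without replicate 3. The share of all genes was not counted there.

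**Figure D4:**
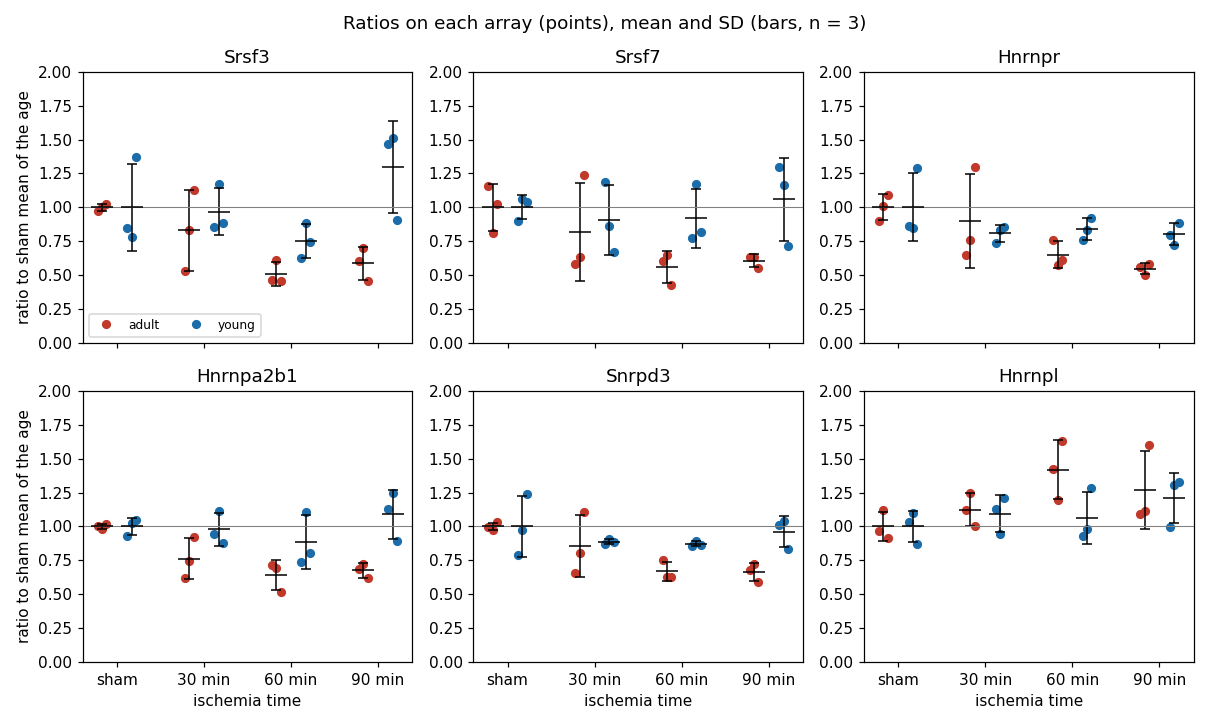
Ratio to the sham mean of the same age (linear scale) for single genes, with 1 point per array and the mean and SD of the 3 arrays, over sham, 30, 60 and 90 min in adult and young livers. Srsf3 averages 0.508 at 60 min and 0.588 at 90 min in adults, and 0.750 and 1.30 in young livers.

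In young liver 0 of 36 members passed at 30, 60 or 90 min, where 0.0557%, 0.0279% and 0.181% of all genes were called. An unadjusted p under 0.05 was reached by 2 members at 30 min (8.36% of genes), 1 at 60 min (10.4%) and 2 at 90 min (9%). The differences were below 0 for 27 members at 30 min, 28 at 60 min and 14 at 90 min, against 56.6%, 55.3% and 57.6% of all genes, with medians of −0.07, −0.14 and 0.06. Srsf4 had ratios of 0.723, 0.728 and 0.701 at 30 min, against 0.937, 1.20 and 0.867 in young sham livers, a difference of −0.47 ± 0.15 (adjusted p = 0.314). At 60 min its ratios of 0.657, 0.701 and 0.849 gave −0.44 ± 0.15 (adjusted p = 0.361). At both times Srsf4 was below every young sham array. Hnrnpdl, a relative of Hnrnpd, had 0.771, 0.792 and 0.583 at 30 min, against 1.01, 1.02 and 0.968, a difference of −0.50 ± 0.17 (adjusted p = 0.330), also without overlap. Both genes are named for their large differences, and the share of all genes without overlap in young livers is not given here. Srsf10, known as a splicing repressor once it is dephosphorylated by heat shock, had 1.47, 1.34 and 0.993 at 90 min, against 0.931, 1.01 and 1.06 in young sham livers, a difference of 0.33 ± 0.11 (adjusted p = 0.292). One of its 3 ischemia arrays, replicate 3, lay among the sham arrays. Without that array Srsf10 passed at 0.49 ± 0.09 (adjusted p = 0.0360), but the array left out is the one that disagreed, so this cannot show a rise. With any other array of the comparison left out, 0 members passed. Within shared title codes the member median was −0.28 at 30 min, 0.13 and −0.06 at 60 min and 0.38 and −0.21 at 90 min, so its sign differed between codes at the longer times. The value at 30 min rests on 1 code with 1 sham array, replicate 3, whose member median of 0.14 was the highest of the young sham arrays. Young ischemia arrays whose code has no sham array are not in these values.

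Whether adult and young livers responded differently was tested as the difference of the responses, adult minus young. It passed for 0 members and 0 genes at 30, 60 and 90 min. An unadjusted p under 0.05 was reached by 0 members at 30 min (2.1% of genes), 1 at 60 min (6.81%) and 10 at 90 min (11.2%). The median difference of the members was −0.10, −0.29 and −0.37 at the 3 times, with 33 of 36 below 0 at 90 min, against 53.6% of genes. Ratios of all 3 adult arrays were below those of all 3 young arrays for 2 members at 30 min, 16 at 60 min and 21 at 90 min, against 5.79%, 16.9% and 21.2% of genes. Adult and young arrays share no first part of the title code, so that part cannot be told apart from age here.

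Srsf3 had the largest age difference at 90 min. Its ratios were 0.603, 0.702 and 0.458 in adult livers, against 1.47, 1.51 and 0.905 in young livers, so every adult array lay below every young one. The responses differed by −1.17 ± 0.36 (adjusted p = 0.404). Snrpd1, a core Sm protein, differed by −0.93 ± 0.38 (adjusted p = 0.431), with ratios of 0.639, 0.729 and 0.392 in adult livers against 1.32, 1.26 and 0.734 in young livers. Srsf1 and Hnrnpm both differed by −0.78, with standard errors of 0.28 and 0.25 (adjusted p = 0.428 and 0.412), and Hnrnpa2b1 by −0.68 ± 0.23 (adjusted p = 0.419). At 60 min the largest was Hnrnph1, at −0.75 ± 0.32 (adjusted p = 0.704). By subfamily the medians at 90 min were −0.57 for hnRNPs, −0.44 for Snrp proteins, −0.32 for SR proteins and −0.27 for SF3 subunits, and U2af1l4 differed by −0.08. Replicate 3 at 90 min was the lowest young array for Srsf3 and Snrpd1, and the sham arrays of the ages enter these differences as well.

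**Figure D5:**
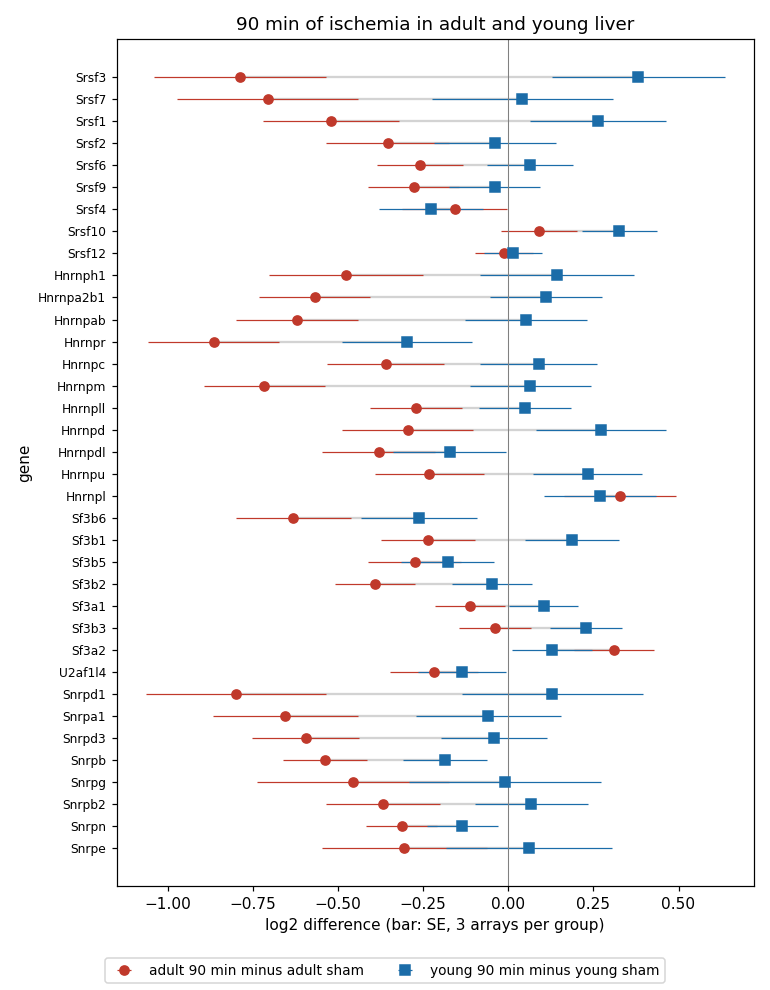
Log2 response at 90 min, ischemia minus sham, of each of the 36 genes in adult and in young liver, with its standard error. Adult values lie below young values for 33 of 36 genes, and the adjusted p of the difference is 0.05 or more for each.

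Steps between ischemia times were tested as well. In adults 0 members and 0 genes passed between 60 and 30 min, where 7 members had an unadjusted p under 0.05 (8.78% of genes), or between 90 and 60 min, where 0 members did (3.19% of genes). The member median was −0.20 for the step to 60 min and 0.01 for the step to 90 min. Srsf3 had the largest first step, −0.66 ± 0.25 (adjusted p = 0.563), and 0.20 ± 0.25 in the second (adjusted p = 0.999). In young livers 0 members and 0 genes passed, with unadjusted counts of 0 (5.16% of genes) for 60 against 30 min and 4 (9.33% of genes) for 90 against 60 min. The 4 were Srsf3 (0.77 ± 0.25), Hnrnpd (0.55 ± 0.19), Srsf1 (0.54 ± 0.20) and Sf3b3 (0.29 ± 0.11), each with an adjusted p of 0.448. The median over all 36 members was 0.15 for that step.

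Side by side, every subfamily had a median below 0 in adults at both longer times. At 60 min the medians were −0.45 for hnRNPs, −0.42 for Snrp proteins, −0.39 for SR proteins, −0.31 for the single U2AF gene and −0.27 for SF3 subunits. At 90 min they were −0.38, −0.50, −0.28, −0.22 and −0.24 in that order, all below the median of all genes. Single members were spread more widely than these medians: at 60 min SR proteins ran from −0.99 (Srsf3) to −0.07 (Srsf12), hnRNPs from −0.71 (Hnrnph1) to 0.50 (Hnrnpl), SF3 subunits from −0.64 (Sf3b6) to 0.18 (Sf3a2), and Snrp proteins from −0.74 (Snrpd1) to −0.29 (Snrpe). No test of a difference between subfamilies was made.

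Beyond the 36 members, 3 lists of other splicing genes were read in adult liver. Of 90 other spliceosome components 14 fell at 60 min and 10 at 90 min, and 0 rose, against 9.78% and 6.28% of all genes called down; their medians were −0.21 and −0.25. The largest differences were those of Rnpc3, a protein of the minor spliceosome, Ddx5, a helicase that acts in splicing and transcription, and Dhx15, the helicase that takes spent spliceosomes apart. Rnpc3 had ratios of 0.454, 0.557 and 0.357 at 60 min and 0.482, 0.408 and 0.445 at 90 min, against 1.14, 0.737 and 1.12 in sham livers, and fell by 1.13 ± 0.27 and 1.14 ± 0.27 (adjusted p = 0.0295 and 0.0234). Ddx5 fell by 0.89 ± 0.22 and 0.90 ± 0.22 (adjusted p = 0.0300 and 0.0255), and Dhx15 by 0.72 ± 0.20 and 0.71 ± 0.20 (adjusted p = 0.0346 and 0.0398). For each of these genes all ischemia arrays at both times were below the sham arrays.

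Of 47 other splicing regulators and nuclear RNA-binding proteins 9 fell at 60 min and 6 at 90 min, and 0 rose, against the same 9.78% and 6.28% of all genes; their medians were −0.25 and −0.21. At 60 min Tardbp, which gives TDP-43 and binds UG repeats, had ratios of 0.524, 0.665 and 0.670, against 1.05, 0.998 and 0.949 in sham livers, and fell by 0.70 ± 0.15 (adjusted p = 0.0266). Pcbp1, which binds poly(C), fell by 0.70 ± 0.17 and Syncrip by 0.69 ± 0.17 (adjusted p = 0.0300 each). At 90 min Syncrip, the nuclear matrix protein Matr3 and Rbm39 fell by 0.68 ± 0.17, 0.61 ± 0.17 and 0.58 ± 0.17. Of 20 splicing kinases and SR-related proteins 2 fell at 60 min, a share near the 9.78% of all genes, Tra2a by 0.63 ± 0.20 and Sap18 by 0.40 ± 0.12 (adjusted p = 0.0472 and 0.0421), and 0 at 90 min, where 6 had an unadjusted p under 0.05, against 28.6% of genes. None of the genes of these 3 lists passed after quantile normalization or without sham replicate 3. The same held at 60 min without sham replicate 1 or ischemia replicate 2 or 3, and at 90 min without ischemia replicate 1 or 2 or with adult arrays alone.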

How the data were processed

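Liver RNA from 24 mice was measured on Affymetrix 3′ arrays. The authors used RMA per the submitters' processing notes, which name no version. They deposited a linear ratio for each probe set: in either age the sham ratios average 1 within 2e-07. Of 26180 probe sets 15228 had 1 symbol through their RefSeq accession. Where a gene had several (661 genes), 1 was kept by type of accession and then the lowest number, leaving 14351 genes.

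Under R 4.3.3, limma 3.58.1 was fitted to the log2 of the deposited ratios, with a mean for each of the 8 groups and 13 comparisons. Residual degrees of freedom were 16 and prior ones 4.53. P-values are two-sided and were adjusted by Benjamini-Hochberg over all genes within a comparison, with a threshold of 0.05; the fit was tested on simulated data. Each subfamily was to give up to 4 passed members per comparison, or at most 2 as values, and each other list up to 3. The members and lists were chosen with earlier results of these data known, and the other splicing lists and cell type lists by hand. Alternatives were each probe set alone, probe sets averaged per gene, quantile normalization, median centring, the title code as a block, 1 age alone, a robust prior and each array left out. Filters on dim probe sets and background corrections need brightness and were not run.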

Additional observations from a re-analysis of the deposited data

How the results depend on the processing

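For adults at 60 min, where 12 members passed, 7 passed with every probe set on its own, 7 with arrays centred on their median (6 down, 1 up), 3 with the arrays of 1 age only and 0 after quantile normalization within an age. Over all 14351 genes 1712 passed in the fit used above, 1325 with arrays centred, 587 with 1 age only and 0 after quantile normalization. With every probe set on its own 2067 of 26180 passed. Leaving out 1 array gave 0 to 10 members, and 1 to 2177 of all genes. At 90 min, where 8 members passed, 0 passed with arrays of 1 age only and 0 after quantile normalization, and leaving out 1 array gave 0 to 5. Over all genes 1069 passed in the fit used above, 47 with 1 age only, 3 after quantile normalization and 7 to 806 without 1 array. For young livers at 90 min leaving out 1 array gave 0 to 1 members, and 2 to 52 of all genes. Fewer arrays and fewer degrees of freedom enter the fits of 1 age and those without an array. Why the counts moved was not tested for any setting. The 20 calls of members kept their sign under all 13 alternatives each, but most of these could not have turned it. For each call the arrays of the groups do not overlap, so leaving out 1 array keeps the sign. The robust prior and the fits of 1 age leave the difference itself unchanged. Averaging a gene's probe sets, the title code as a block and the robust prior left the counts within 1.5 times. Signs turned only for differences that did not pass. After quantile normalization U2af1l4 had an age difference of −0.0024 at 30 min, 0.039 at 60 min and 0.026 at 90 min. With the title code as a block it had −0.038 at 30 min, Snrpd1 had 0.0023 there, and Sf3b2 had 0.057 for young 60 against 30 min. Leaving out 1 array, the age difference of U2af1l4 ran from −0.095 to 0.13 at 30 min, −0.15 to 0.053 at 60 min and −0.19 to 0.041 at 90 min, and its steps from −0.18 to 0.0012 (young 60 against 30 min) and −0.018 to 0.21 (adult 90 against 60 min). Likewise Snrpd1 ran from −0.24 to 0.21 (adult 90 against 60 min), Sf3a2 from −0.0042 to 0.13 (young 60 against 30 min), and at young 30 min Srsf7 from −0.39 to 0.020 and Snrpa1 from −0.32 to 0.041. The labels give the arrays no replicate numbers to pair. The title code that sham and ischemia arrays share was used as a block instead, with 11 members passing at 60 min and 12 at 90 min in adults. Over all genes 1710 and 1467 passed with that block. With 3 arrays a group and no brightness, dim probe sets cannot be told from bright ones.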
